A study of Mus musculus with 6 samples.

Results

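Nuclear genes of oxidative phosphorylation were compared between GR-cKO and control cardiomyocytes of newborn mice. The genes were chosen by symbol, with a rule that uses no measured value, though it was set with earlier results of these data known. It covers protein-coding GENCODE genes named as Nduf subunits of the a, b, c, s and v series, and Sdha to Sdhd. It also covers the Uqcr genes, Cyc1, Cycs, Cox4i1, the genes of the Cox5 to Cox8 families, and the Atp5 genes. The rule took 84 of the 52550 genes in the count tables. They comprised 35 genes of complex I, 4 of complex II, 9 of complex III, cytochrome c, 18 of complex IV and 17 of complex V. Ndufa4, first described with complex I, was placed in complex IV, as was the supercomplex factor Cox7a2l. Atp5s, coupling factor B, was kept under complex V because the rule takes it.

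The groups were 3 libraries of GR-cKO cells, which carry a deletion of the glucocorticoid receptor specific to cardiomyocytes, and 3 libraries of control cells. The labels name neither the promoter that drives the deletion, nor the deleted exon, nor the strain, nor the genotype behind "ctrl", and give the treatment of all 6 samples as control. In both groups, cells were isolated from hearts at postnatal day 1, sorted magnetically for cardiomyocytes, cultured for 48 hours with serum and then kept for 24 hours without it. Messenger RNA was read as tags at the 3' end (QuantSeq forward libraries), so that a count does not grow with transcript length, and splice forms that share a 3' end are counted together.

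The respiratory chain passes electrons from NADH, through complex I, or from succinate, through complex II, to ubiquinone, then through complex III and cytochrome c to complex IV, which reduces oxygen. Complexes I, III and IV pump protons across the inner mitochondrial membrane, and complex V, the ATP synthase, uses their return to make ATP. The subunits of complexes I, III, IV and V come from both nuclear and mitochondrial DNA, those of complex II from nuclear DNA alone. Heart muscle is packed with mitochondria and depends on this pathway for its contraction, and several complex IV subunits have a separate form in striated muscle.

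The libraries held 19371508 to 22583596 gene counts, and no pair of replicates was close enough to be the same library. Levels are given as CPM, counts scaled to library size. Nr3c1, which encodes the receptor, stood at 46.2, 42.8 and 44.1 CPM in GR-cKO, against 68.2, 73.9 and 72.4 CPM in control. The fold change of -0.69 ± 0.09 (SE, log2 scale) had an adjusted p of 3.3e-06 by edgeR's quasi-likelihood test. Tags from a 3' end that the deletion may spare do not measure how much receptor was left. Genes are called at an adjusted p below 0.05, and of all 14386 genes tested 7.63% were called higher and 7.19% lower. Of the 1693 genes with a mean of at least 100 CPM, 29.2% were called. Of 12 cardiomyocyte markers, 9 were called higher and 1 lower, and their summed level was 45839 to 48169 CPM in GR-cKO, against 35963 to 37654 CPM in control. Markers of other heart cells were present too: fibroblast markers summed to 5995 to 6088 CPM in GR-cKO, against 4676 to 4930 CPM in control, with 6 of 10 higher and 1 lower. Endothelial markers summed to 1321 to 1412 CPM in GR-cKO, against 1044 to 1087 CPM in control, with 8 of 10 higher and 1 lower. Leukocyte markers summed to 35.7 to 55.6 CPM in GR-cKO, against 14.9 to 18.6 CPM in control, with 2 of 6 tested higher and none lower. Epicardial markers summed to 92.1 to 111 CPM in GR-cKO, against 97.1 to 100.5 CPM in control, with 2 of 6 higher, 2 lower and a median log2 fold change of -0.46. Erythroid markers, 2 of 5 tested and none called, summed to at most 5.00 CPM in GR-cKO and 3.02 CPM in control. The part of these markers in the results was not tested, and in bulk samples fewer cells of a type and less RNA per cell cannot be told apart. Xist, which only cells with an inactive X chromosome make, was at 0, 0.0996 and 0 CPM in GR-cKO, against 293, 271 and 272 CPM in control, so that sex and genotype cannot be told apart here.

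Most oxidative phosphorylation genes stayed close to their control level in GR-cKO. The filter on low counts kept 82 of the 84 genes. Among them 2 rose, Ndufv3 of complex I and Sdhb of complex II, and none fell, at an adjusted p below 0.05 over all 14386 genes tested (edgeR quasi-likelihood test, Benjamini-Hochberg). The share called was 2.44%, against 14.8% of all genes tested. Higher calls made up 7.63% and lower calls 7.19% of all genes. Since strongly expressed genes are measured more precisely, the same was counted over the 1693 genes with a mean of at least 100 CPM. There 29.2% were called, against 2 of the 73 oxidative phosphorylation genes at that level. The number of oxidative phosphorylation genes called ranged from 1 to 4 when single libraries were left out, with 4 without GR-cKO replicate 1 and 1 without GR-cKO replicate 2, GR-cKO replicate 3 or control replicate 2. With ERCC spike-in scaling, which also raised the median log2 fold change of all genes, the number was 4. With library totals alone it was 1.

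The differences were small as well as mostly uncalled. The 95% interval of the fold change lay within 1.25-fold in both directions for 71 of the 82 genes, or 86.6%. The same held for 20.4% of all genes tested and for 61.0% of the genes with at least 100 CPM, while at that level it held for 68 of 73 oxidative phosphorylation genes. The median SE of the log2 fold change was 0.07 for these genes and 0.15 for all genes tested. Point estimates lay above 0 for 64 genes and below 0 for 18, so that 78.0% were above 0, against 48.9% of all genes tested. Their median log2 fold change was 0.05, where that of all genes was -0.01. The distance between both medians was 0.05 and stayed between 0.03 and 0.08 over the 14 alternative analyses. GR-cKO and control libraries were fully separate for 9 of the 82 genes, all higher in GR-cKO. That is 11.0%, against 29.9% of all genes tested and 45.0% of those with at least 100 CPM; higher separation alone made up 15.2% of all genes and lower 14.7%.

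**Figure D1:**
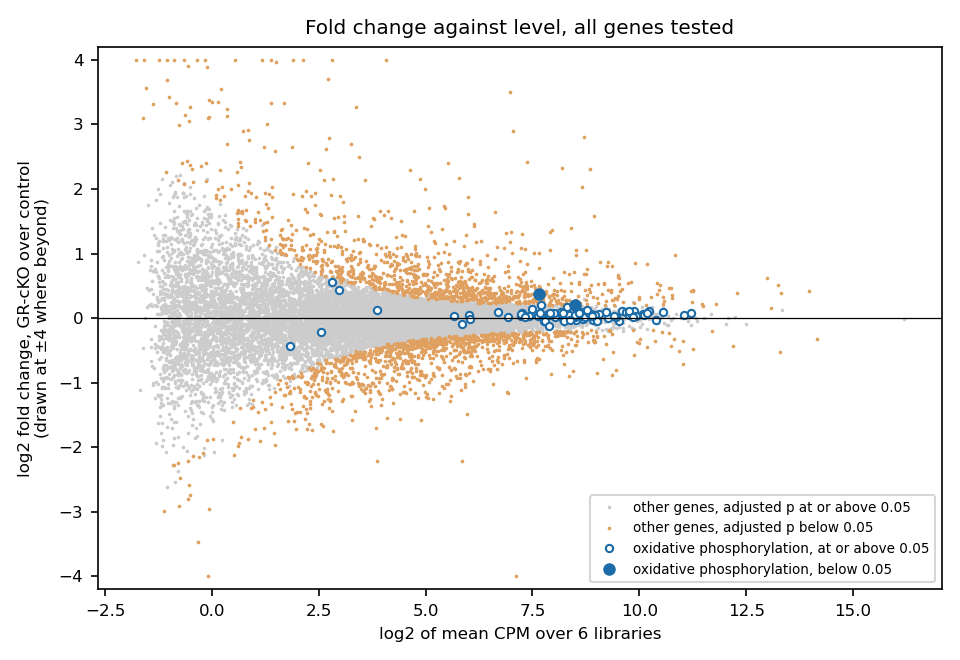
Log2 fold change (GR-cKO over control, vertical axis) against the log2 of the mean CPM over 6 libraries (horizontal axis) for all 14386 genes tested; values beyond 4 in either direction are drawn at 4. Most oxidative phosphorylation genes (blue rings, and filled where the adjusted p was below 0.05) lie in a narrow band near 0 on the right of the plot, where many other genes (orange) were called.

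**Figure D2:**
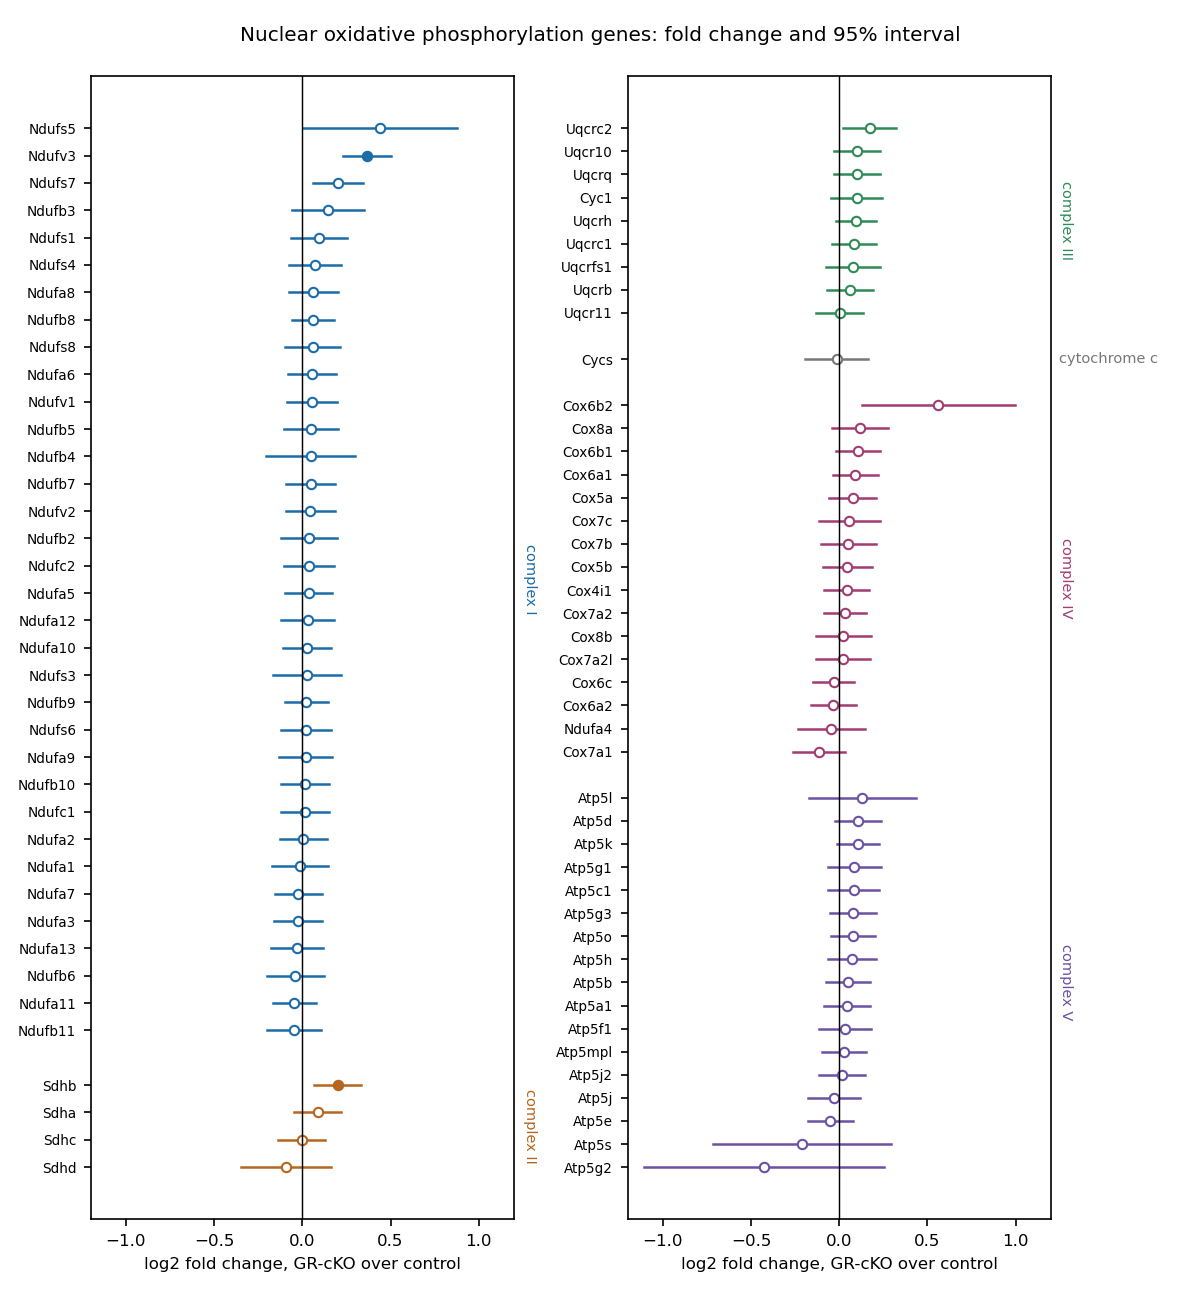
Log2 fold change of the tested genes reported here (point) with its 95% interval (line), by complex; filled points had an adjusted p below 0.05. Only Ndufv3 and Sdhb are filled, and the widest intervals belong to genes with few counts, such as Atp5g2 and Ndufs5.

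Summed over their members, the complexes also differed little. Complex I genes summed to 11008, 11451 and 11606 CPM in GR-cKO, against 11159, 10953 and 11175 CPM in control. Complex II genes summed to 1153, 1190 and 1240 CPM in GR-cKO, against 1093, 1141 and 1169 CPM in control. The groups overlapped for both complexes. Complex III genes summed to 5405, 5641 and 5750 CPM in GR-cKO, against 5230, 5300 and 5277 CPM in control. With the scaling used here (TMM), it was the one complex whose sums did not overlap, with GR-cKO higher by a ratio of 1.06. GR-cKO replicate 1, at 5405 CPM, lay close above control replicate 2, at 5300 CPM, and their TMM factors were 0.981 and 1.015. Without these factors the complex III sums of both groups overlap. Complex IV genes summed to 8379, 8785 and 9219 CPM in GR-cKO, against 8515, 8467 and 8729 CPM in control. Complex V genes summed to 12269, 12844 and 13543 CPM in GR-cKO, against 12151, 12337 and 12656 CPM in control. Both overlapped, and within the GR-cKO group replicate 3 had the highest and replicate 1 the lowest sum in each of the 5 complexes. The tested genes together took 3.83% to 4.14% of the scaled counts in GR-cKO and 3.82% to 3.91% in control. These sums are given as a description, without a test.

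**Figure D3:**
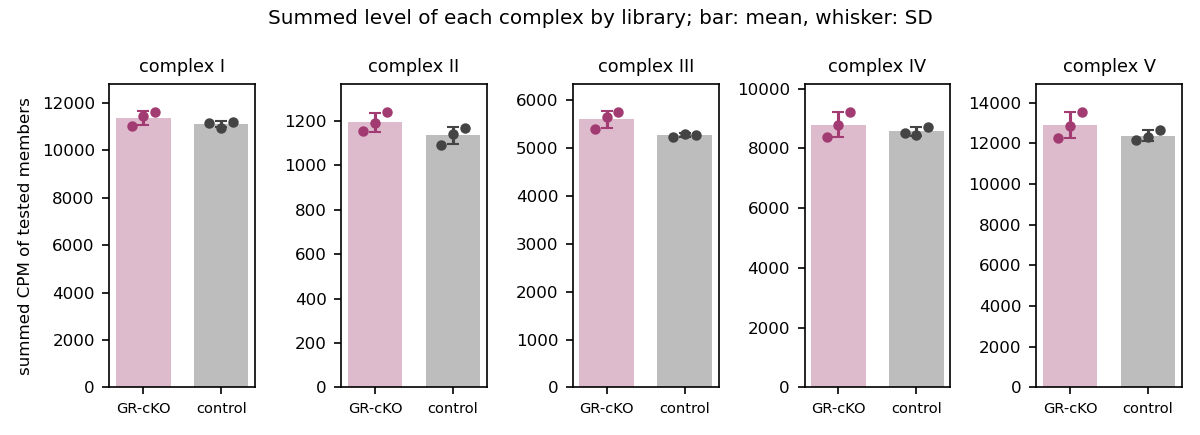
Summed CPM of the tested genes of each complex in each library (points), with the mean (bar) and SD (whisker) of 3 GR-cKO libraries at left and 3 control libraries at right. The groups overlap in complexes I, II, IV and V, and the GR-cKO libraries lie above the control libraries in complex III, which depends on the TMM scaling.

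Complex I takes electrons from NADH at a peripheral arm that holds a flavin and a row of iron-sulfur clusters, and hands them to ubiquinone at the junction with the membrane arm. All 35 of its genes were tested, and 1 was called, Ndufv3, which encodes a small accessory subunit of the NADH-binding part and is known to be made as a short and a long splice form. Ndufv3 (ENSMUSG00000024038, GRCm38 chromosome 17, 31520115 to 31531331, plus strand) stood at 229, 224 and 230 CPM in GR-cKO, against 178, 173 and 179 CPM in control. The libraries of each group lay within a few CPM of one another and the groups were far apart. The log2 fold change was 0.37 ± 0.07 (SE, n = 3 each), or 1.29-fold, with a 95% interval from 0.23 to 0.50 and an adjusted p of 0.000285 (edgeR). The call held in each of the 14 alternatives, with the largest adjusted p at 0.00555. The other subunits of the NADH-binding flavoprotein did not pass. Ndufv1, which binds NADH and the flavin, averaged 331 ± 14.1 CPM in GR-cKO and 319 ± 22.4 CPM in control, and Ndufv2 averaged 242 ± 8.86 CPM in GR-cKO and 234 ± 9.2 CPM in control (SD, n = 3 each).

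The promoters of both genes that rose are printed here, together with that of Cox6a1, whose window holds letters of factors known to drive respiratory genes. Each is the RefSeq window of 250 bases before to 50 after the transcription start on GRCm38.p6, 5′ to 3′ on the gene's strand. Capitals mark matches on either strand to the palindrome of nuclear respiratory factor 1 (with any base in its middle), CCGGAAG (ETS factors, among them GABPA, or nuclear respiratory factor 2), AAGATGGCG (YY1) and ACGTG (the core that hypoxia-inducible factors, and also E-box factors such as USF, recognise).
Ndufv3, chr17:31519865-31520164, plus strand: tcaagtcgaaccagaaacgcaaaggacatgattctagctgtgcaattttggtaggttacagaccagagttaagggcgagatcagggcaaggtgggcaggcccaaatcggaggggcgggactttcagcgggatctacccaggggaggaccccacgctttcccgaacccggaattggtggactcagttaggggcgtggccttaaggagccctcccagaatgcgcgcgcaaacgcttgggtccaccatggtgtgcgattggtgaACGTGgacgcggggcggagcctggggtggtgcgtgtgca
Sdhb, chr4:140961021-140961320, plus strand: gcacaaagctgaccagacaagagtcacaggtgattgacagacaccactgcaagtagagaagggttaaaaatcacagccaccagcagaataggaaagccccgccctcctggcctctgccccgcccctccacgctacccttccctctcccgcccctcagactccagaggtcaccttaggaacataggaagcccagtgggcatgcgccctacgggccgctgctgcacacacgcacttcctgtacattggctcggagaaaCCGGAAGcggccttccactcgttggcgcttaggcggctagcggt
Cox6a1, chr5:115348909-115349208, minus strand: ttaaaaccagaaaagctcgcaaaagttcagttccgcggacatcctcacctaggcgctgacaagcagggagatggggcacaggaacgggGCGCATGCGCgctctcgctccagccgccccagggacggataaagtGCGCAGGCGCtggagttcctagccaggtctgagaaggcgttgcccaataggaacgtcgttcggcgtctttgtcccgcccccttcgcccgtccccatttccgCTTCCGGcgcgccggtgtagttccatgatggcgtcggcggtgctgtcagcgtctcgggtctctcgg

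The RefSeq table held 72 such windows for 67 of the 84 genes, and 20150 windows for all protein-coding genes. The nuclear respiratory factor 1 palindrome was in 25.0% of the windows of oxidative phosphorylation genes, against 6.60% of all windows. CCGGAAG was in 22.2%, against 11.9%, and AAGATGGCG in 9.72%, against 1.93%. ACGTG was in 25.0%, close to the 21.1% of all windows. The palindrome that the glucocorticoid receptor binds was in 0 of 72 windows, against 0.452% of all. At so low a share 72 windows would seldom hold a match, so this count cannot show a lack of such sites. The median window held 19 CpG dinucleotides, against 14 over all protein-coding genes. Both strands were searched and overlaps between motifs were not removed. A match describes the letters of a window and does not show that a factor binds there.

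All 8 genes of the iron-sulfur series had an estimate above 0, with a median log2 fold change of 0.08, and none was called. Of the tested oxidative phosphorylation genes 78.0% had an estimate above 0, against 48.9% of all genes tested. Ndufs7, which carries the last cluster before ubiquinone, stood at 212, 233 and 224 CPM in GR-cKO, against 203, 193 and 186 CPM in control. The groups did not overlap, but the log2 fold change of 0.20 ± 0.07 had an adjusted p of 0.0514 (edgeR), just outside the threshold, and it passed in 8 of 15 analyses counting this one. Ndufs5, an accessory subunit on the side of the intermembrane space, had the lowest level of complex I, at 7.95, 8.97 and 10.2 CPM in GR-cKO, against 8.10, 6.79 and 5.04 CPM in control. Its log2 fold change of 0.44 ± 0.21 did not pass (adjusted p = 0.185, edgeR), and its last 150 bases have a near copy in the pseudogene BC002163, itself at 2.16 CPM over the 6 libraries, so its level is uncertain. Among other genes of this series, Ndufs1 had a log2 fold change of 0.09, Ndufs4 of 0.07 and Ndufs8 of 0.06. Ndufs3 had one of 0.03 and Ndufs6 of 0.02, and each of these genes overlapped between the groups.

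Most accessory subunits of the a and b series lie in or on the membrane arm, and none of their genes was called. The 12 genes of the a series had log2 fold changes between -0.05 and 0.06, with a median of 0.01, and every one of their 95% intervals lay within 1.25-fold. The 10 genes of the b series lay between -0.05 and 0.15, with a median of 0.04. Ndufb8, the complex I gene with the highest level, was at 1113, 1102 and 1096 CPM in GR-cKO, against 1016, 1058 and 1103 CPM in control, with overlap. Ndufb3 varied most between libraries among the abundant subunits of complex I, at 193, 173 and 200 CPM in GR-cKO, against 140, 164 and 207 CPM in control. It did not pass (adjusted p = 0.387, edgeR), but it did without control replicate 3 (adjusted p = 0.0236). Ndufb4 varied likewise, at 57.5, 75.7 and 63.5 CPM in GR-cKO, against 74.4, 67.1 and 48.6 CPM in control.

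Complex II, succinate dehydrogenase, is also an enzyme of the citric acid cycle. Of its 4 genes Sdhb, the iron-sulfur subunit, was called and the others were not. Sdhb (ENSMUSG00000009863, GRCm38 chromosome 4, 140961203 to 140979193, plus strand) was at 363, 401 and 392 CPM in GR-cKO, against 328, 341 and 337 CPM in control. The groups did not overlap, and the log2 fold change was 0.20 ± 0.06 (SE, n = 3 each), or 1.15-fold, with an adjusted p of 0.0381 (edgeR). This call is not firm: it ended with library totals alone (adjusted p = 0.11) and on leaving out any 1 library except GR-cKO replicate 1, with adjusted p-values up to 0.179. Sdha, the flavoprotein that oxidises succinate, was at 260.5, 255 and 274 CPM in GR-cKO, against 253, 244 and 246 CPM in control, a log2 fold change of 0.09 ± 0.07. Sdhc and Sdhd anchor the enzyme in the membrane. Sdhc averaged 490 ± 15.3 CPM in GR-cKO and 491 ± 29.6 CPM in control. Sdhd was at 55.0, 44.0 and 69.1 CPM in GR-cKO, against 53.3, 57.7 and 68.2 CPM in control, and its spread within each group was wider than the difference between them.

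**Figure D4:**
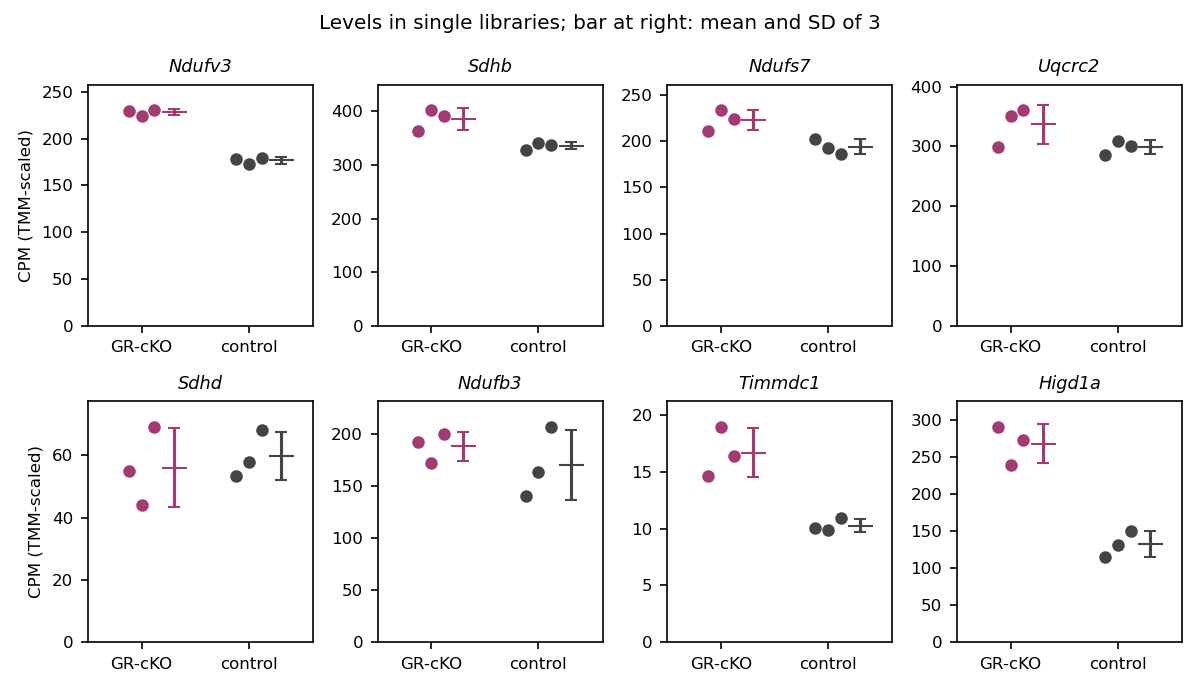
CPM in each library (points; GR-cKO left, control right), with the mean and SD of 3 libraries beside them, for 6 oxidative phosphorylation genes and 2 assembly factors, each panel starting at 0. Ndufv3, Sdhb, Ndufs7, Timmdc1 and Higd1a show no overlap between the groups, while Uqcrc2, Sdhd and Ndufb3 do overlap.

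Complex III passes electrons from ubiquinol to cytochrome c. None of its 9 genes was called (edgeR), and DESeq2's test on the same genes called none. At an unadjusted p under 0.05 there was 1, Uqcrc2. All 9 had a log2 fold change above 0, between 0.00 and 0.17 with a median of 0.09. Estimates lay above 0 for 78.0% of the tested oxidative phosphorylation genes and 48.9% of all genes tested. They come from the same libraries and scaling, so the shared sign is not separate evidence from each gene. Uqcrc2, a core subunit, was at 299, 351 and 360 CPM in GR-cKO, against 286, 310 and 300 CPM in control. The lowest GR-cKO library lay inside the control range, and the log2 fold change of 0.17 ± 0.07 had an adjusted p of 0.122 (edgeR), or 0.0218 without GR-cKO replicate 1. The other core subunit, Uqcrc1, was at 456, 466 and 481 CPM in GR-cKO, against 441, 435 and 448 CPM in control, without overlap. Uqcrh, the acidic hinge subunit that docks cytochrome c1 to cytochrome c, was at 1554, 1561 and 1506 CPM in GR-cKO, against 1429, 1442 and 1456 CPM in control, also without overlap, at an adjusted p of 0.295 (edgeR). Of the subunits that carry electrons, the Rieske iron-sulfur protein Uqcrfs1 averaged 246 ± 18.7 CPM in GR-cKO and 233 ± 17.7 CPM in control, and cytochrome c1, Cyc1, 299 ± 10.2 CPM in GR-cKO and 279 ± 23 CPM in control. The small accessory subunits Uqcr10 and Uqcrq had log2 fold changes of 0.10 each.

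Cytochrome c, the mobile carrier between complexes III and IV, is encoded in somatic cells by Cycs. It was at 63.8, 61.5 and 70.4 CPM in GR-cKO, against 68.0, 64.8 and 64.7 CPM in control. The groups overlapped, and the 95% interval of the log2 fold change ran from -0.19 to 0.16.

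Complex IV, cytochrome c oxidase, surrounds a core of mitochondrially encoded subunits with nuclear ones, several of which exist in alternative forms. Of 18 genes 16 were tested and none was called (edgeR), while 1, Cox6b2, had an unadjusted p under 0.05 and DESeq2's test called none. Their log2 fold changes ran from -0.12 to 0.56. Cox8c had a count of 0 in all 6 libraries, which allows up to 0.133 to 0.155 CPM by counting error alone. Cox7b2 had 8 counts in control replicate 1 and none elsewhere. Cox8c and Cox7b2 are known from testis, as is Cox6b2, the scarcest complex IV gene tested. Cox6b2 was at 9.17, 7.27 and 8.70 CPM in GR-cKO, against 5.03, 6.56 and 5.43 CPM in control. It did not overlap between the groups, but its log2 fold change of 0.56 ± 0.21 had an adjusted p of 0.0758 (edgeR), and it passed with ERCC scaling only (0.0476). The log2 ratio of Cox6b2 to Cox6b1 was higher in GR-cKO by 0.46, without overlap. Its exact permutation p was 0.1, the smallest that 3 against 3 libraries allow, and 0.2 adjusted over 8 pairs. Cox6c, the complex IV gene with the highest level, averaged 1332 ± 20.1 CPM in GR-cKO and 1362 ± 53.1 CPM in control, and Cox4i1, the ubiquitous form of subunit 4, 876 ± 49.1 CPM in GR-cKO and 851 ± 19.6 CPM in control (SD, n = 3 each).

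Some subunits of complex IV have a form of striated muscle, Cox6a2, Cox7a1 and Cox8b, beside a ubiquitous form, Cox6a1, Cox7a2 and Cox8a, and the muscle forms are known to increase as the heart matures. None of these 6 genes was called. Cox6a2 was at 461, 471 and 495 CPM in GR-cKO, against 479, 486 and 497 CPM in control, and Cox6a1 at 586, 637 and 618 CPM in GR-cKO, against 587, 575 and 566 CPM in control. Cox6a2 took 43.7% ± 1.01 of the counts of its pair in GR-cKO and 45.8% ± 0.911 in control (SD, n = 3 each). The ratio of both genes did not overlap between the groups, and the exact two-sided permutation test over libraries gave p = 0.1, the smallest that 3 against 3 allows. Adjusted over the 8 isoform pairs compared it was 0.2. Cox7a1 had the lowest estimate of the tested complex IV genes, at 212, 224 and 243 CPM in GR-cKO, against 248, 234 and 255 CPM in control, a log2 fold change of -0.12 ± 0.07 (adjusted p = 0.323, edgeR). It took 18.7% ± 1.08 of its pair in GR-cKO and 20.3% ± 1.07 in control, with overlap (exact permutation p = 0.3). The log2 ratio of Cox8b to Cox8a differed by -0.09 (GR-cKO minus control), again with overlap (exact permutation p = 0.4). A share within a library does not depend on the scaling between libraries.

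Of 9 tested subunits and relatives outside the symbol rule, 2 rose, Cox4i2 and Ndufa4l2, and none fell, against 7.63% and 7.19% of all genes tested. Their median log2 fold change was 0.06, and the lowest was -0.24 for Etfa, an electron carrier that feeds ubiquinone from fatty acid oxidation, which was not called. Cox4i2 was at 6.69, 9.21 and 5.46 CPM in GR-cKO, against 2.25, 2.11 and 2.47 CPM in control, without overlap. Its log2 fold change was 1.64 ± 0.27 (adjusted p = 0.000115, edgeR), but next to Cox4i1 it remained scarce, with 0.808% ± 0.216 of the pair in GR-cKO and 0.267% ± 0.0264 in control. Cox4i2 is also known from pericytes, and 5 of 8 smooth muscle and pericyte markers rose, their summed level being 4413 to 4636 CPM in GR-cKO, against 3725 to 3837 CPM in control. Most of that sum came from Acta2, with a mean of 3835 CPM in GR-cKO and 3294 CPM in control. Beside Acta2, the markers Rgs5, Pdgfrb, Cspg4 and Cnn1 rose, with log2 fold changes of 1.04, 0.47, 0.58 and 1.33. Tagln, Myh11 and Kcnj8, none of them called, had -0.23, -0.60 and -0.15. Kcnj8 was scarce, with a mean of 1.22 CPM in GR-cKO and 1.34 CPM in control. The part of these markers in the Cox4i2 result was not tested. Ndufa4l2, the relative of the complex IV subunit Ndufa4, rose to 33.3, 37.3 and 29.2 CPM in GR-cKO, against 0.623, 0.375 and 0.148 CPM in control. Its log2 fold change was 6.41 ± 0.25 (adjusted p = 3.8e-15, edgeR). The control values rest on few counts, as 3 counts make 0.14 to 0.15 CPM there, so the size of this difference is uncertain. Ndufa4l2 took 10.3% ± 2.18 of the counts of both genes in GR-cKO and 0.133% ± 0.0939 in control, while Ndufa4 itself averaged 295 ± 44.8 CPM in GR-cKO and 305 ± 35.8 CPM in control (exact permutation p = 0.1 for each of both pairs, the smallest possible, and 0.2 adjusted over 8 pairs).

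**Figure D5:**
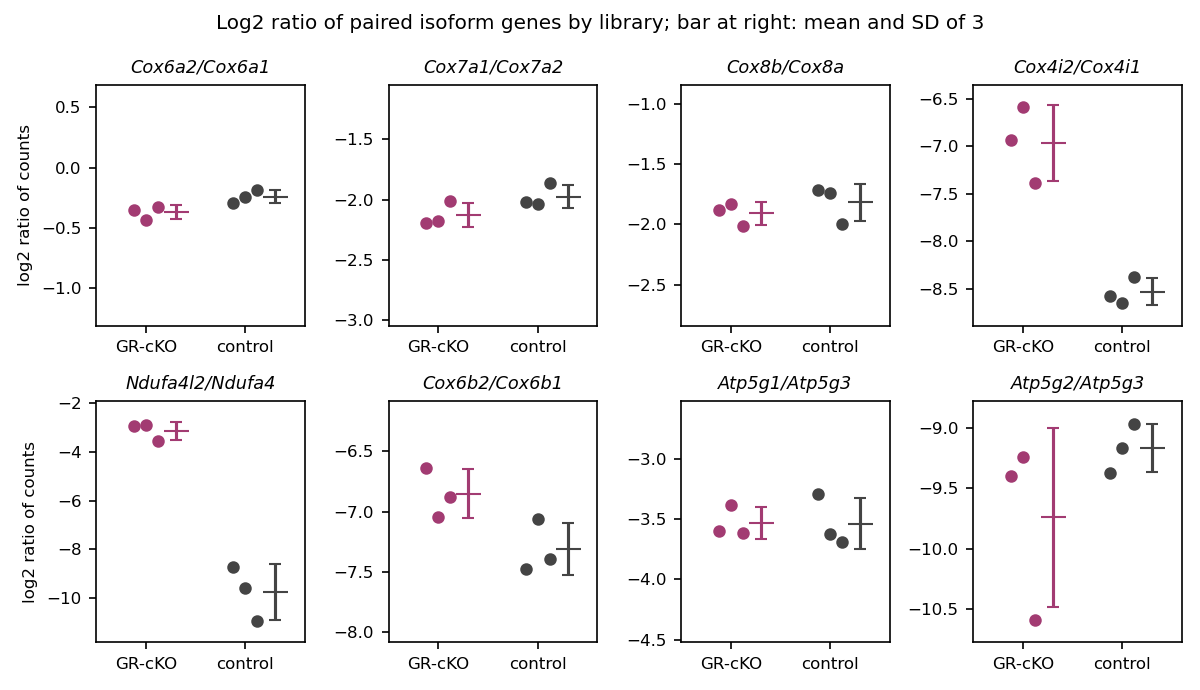
Log2 ratio of the counts of 2 genes within each library (points; GR-cKO left, control right), with the mean and SD of 3 libraries, for the 8 isoform pairs; the vertical scale differs between panels. Cox4i2/Cox4i1 and Ndufa4l2/Ndufa4 lie higher in GR-cKO by 1.56 and 6.60, the latter uncertain in size because Ndufa4l2 has few counts in control. Cox6b2/Cox6b1 lies higher in GR-cKO by 0.46, also without overlap. The 3 muscle over ubiquitous pairs differ by -0.09 to -0.15 (GR-cKO minus control), and only Cox6a2/Cox6a1 has no overlap among them.

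Complex V has a soluble head, where ATP is made, a rotating ring in the membrane, and a stalk that holds the head in place. All 17 genes were tested and none was called (edgeR). None had an unadjusted p under 0.05, and DESeq2's test called none either. In the head, Atp5b, the catalytic beta subunit, was at 1961, 2196 and 2309 CPM in GR-cKO, against 2104, 2067 and 2080 CPM in control, and the alpha subunit Atp5a1 at 1096, 1079 and 1170 CPM in GR-cKO, against 1018, 1058 and 1171 CPM in control. Both overlapped. The gamma, delta and epsilon subunits of the central stalk, Atp5c1, Atp5d and Atp5e, had log2 fold changes of 0.08, 0.11 and -0.05. In the peripheral stalk Atp5o, the subunit that confers sensitivity to oligomycin, had one of 0.08 ± 0.06, with an adjusted p of 0.466 (edgeR). Atp5k, the e subunit, which helps the enzyme to dimerise, was at 1202, 1312 and 1234 CPM in GR-cKO, against 1190, 1147 and 1147 CPM in control. It was the only complex V gene without overlap, at an adjusted p of 0.269 (edgeR).

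The ring of complex V is built from 1 mature protein encoded by Atp5g1, Atp5g2 and Atp5g3, which differ in the import signal. Atp5g3 had the highest level of all oxidative phosphorylation genes, at 2415, 2300 and 2578 CPM in GR-cKO, against 2108, 2297 and 2502 CPM in control. Atp5g2 had the lowest of those tested, at 3.57, 3.79 and 1.65 CPM in GR-cKO, against 3.16, 3.98 and 4.99 CPM in control. Atp5g1 took 7.97% ± 0.678 of the counts of Atp5g1 and Atp5g3 in GR-cKO and 7.97% ± 1.11 in control (exact permutation p = 0.9). The ratio of Atp5g2 to Atp5g3 gave an exact permutation p of 0.2. Both ratios overlapped between the groups, and the last 150 bases of Atp5g1 and Atp5g2 have a near copy elsewhere, so their levels are uncertain.

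Of the genes chosen by the rule, 3 lie on the X chromosome. Ndufa1 averaged 408 ± 42.4 CPM in GR-cKO and 412 ± 32.9 CPM in control, Ndufb11 215 ± 18.8 CPM in GR-cKO and 223 ± 10.8 CPM in control, and Cox7b 510 ± 58.9 CPM in GR-cKO and 492 ± 25.8 CPM in control (SD, n = 3 each). All 3 overlapped between the groups, none was called, and each 95% interval lay within 1.25-fold.

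Proteins that assemble the complexes were examined as a list of 54, of which 53 were tested. Of these 2 rose and none fell, or 1 of 16 for complex I and 1 of 22 for complex IV, with a median log2 fold change of 0.02. Of all genes tested 7.63% were called higher and 7.19% lower. Higd1a, which is induced by hypoxia and binds complex IV, was at 290, 238 and 273 CPM in GR-cKO, against 115, 132 and 150 CPM in control, a log2 fold change of 1.01 ± 0.09 (adjusted p = 1.07e-08, edgeR). Timmdc1, which helps to build the membrane arm of complex I, was at 14.6, 18.9 and 16.4 CPM in GR-cKO, against 10.0, 9.84 and 10.9 CPM in control, a log2 fold change of 0.70 ± 0.16 (adjusted p = 0.0025, edgeR). The groups did not overlap for either. No assembly factor of complexes II, III and V was called among 4, 6 and 5 tested. With ERCC scaling, which also raised the median log2 fold change of all genes, 5 of the 53 rose.

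The subunits that mitochondrial DNA encodes were examined beside the nuclear ones. Of 13 such genes 8 were tested, 2 fell and none rose, where 7.19% of all genes tested fell, and their median log2 fold change was -0.20. The 13 genes summed to 17926 to 19730 CPM in GR-cKO, against 20045 to 20715 CPM in control, given without a test. Of those not tested, mt-Nd4l, mt-Co2, mt-Co3 and mt-Atp8 were at 0 counts in all 6 libraries, so these tags do not measure them. mt-Co1, the catalytic subunit of complex IV, was at 891, 847 and 862 CPM in GR-cKO, against 1124, 1111 and 1116 CPM in control, and mt-Nd2 of complex I had a log2 fold change of -0.20 ± 0.05 (adjusted p = 0.00946, edgeR), which did not pass with ERCC scaling (0.424) or without control replicate 2 (0.0769). Outside the threshold, mt-Nd5 and mt-Nd6 were lower without overlap, with log2 fold changes of -0.20 and -0.60 (adjusted p = 0.0502 and 0.0702, edgeR). Lower separation made up 14.7% of all genes tested. The remaining tested genes overlapped: mt-Nd1 and mt-Cytb had -0.09 each, the scarce mt-Nd3 -0.29 and mt-Nd4 0.01. The difference between nuclear and mitochondrial genes was not tested.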

How the data were processed

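For every library the authors deposited a table of unnormalized whole-number counts by gene. The submitters' processing notes name STAR 2.5.4a, featureCounts 1.6.2, cutadapt 1.16 and the build GRCm38, and also bcl2fastq, FastQC, MultiQC and DESeq2 1.18.1. The strand setting, like the handling of multiply matching reads, is not given in sources used here. Of the oxidative phosphorylation genes, 8 have the last 150 bases of a transcript repeated in another GENCODE gene (95% identity over at least 100 bases, blastn 2.17.0), and 15 overlap another gene in their last 500 bases. A second gene identifier for Atp5o was not analysed here. The values of 1 gene are counted in the totals but not reported here.

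Identifiers were matched to GENCODE M21, which gave symbols for 52403 of 52550. Coordinates are 1-based. The 92 ERCC and 7 SIRV rows, 1.98% to 2.36% of counts, stayed out of library sizes and tests. Groups and replicate numbers came from the titles. The titles call the replicates biological but name no separate animals or cultures, so p-values measure only the spread between these libraries. The test was edgeR 4.0.16 (R 4.3.3), quasi-likelihood, with TMM factors (0.980 to 1.024), the default filter on low counts and Benjamini-Hochberg adjustment over 14386 genes. It was checked on simulated counts. Levels are TMM-scaled CPM, with mean ± SD over 3 libraries; each SE is the absolute log2 fold change divided by the root of F. Isoform ratios used 0.5 added counts and an exact permutation test. Alternatives were DESeq2 1.42.0 (test, and its size factors), limma-voom (limma 3.58.1), ERCC scaling, library totals, 2 other filters, leaving out each library, and a replicate block. Libraries with the same number did not deviate together (correlations of -0.0001 to 0.037). The members, lists and rule for named genes (every called member, the 4 smallest p of each complex, isoform pairs, X-linked members, the highest and lowest level of each complex, and called genes of the other lists) were chosen with earlier results of these data known. Any other gene named was picked with its values in view.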

Additional observations from a re-analysis of the deposited data

How the results depend on the processing

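Of both calls among the oxidative phosphorylation genes, that of Ndufv3 held in all 14 alternatives and that of Sdhb in 8 of them. Scaling by ERCC spike-ins left 522 genes called lower, against 1035 with TMM, and 4 oxidative phosphorylation genes called higher, against 2. It moved the median log2 fold change of all genes to 0.09, that of the tested oxidative phosphorylation genes to 0.14, and those of complexes I, II, III and V to 0.13, 0.13, 0.19 and 0.14. With ERCC scaling 5 assembly factors rose, 1 mitochondrially encoded subunit fell and 1 complex IV gene was called. The median of all genes moved up with it, and the share of all genes called higher at this setting is not given here. The added higher calls are therefore not read as a trait of these genes. Library totals without TMM gave 1 oxidative phosphorylation gene called, 0 in complex II, 1 assembly factor called lower and a complex II median of 0.0062. Complex I had 2 genes called, not 1, with DESeq2 size factors, the DESeq2 test, limma-voom, ERCC scaling, the filter at 1 CPM in 3 libraries and the replicate block. Without a filter, and with the replicate block, 4 mitochondrially encoded subunits fell. The block rests on numbers that the libraries only share. It changed no other count by over 1.5 times and gave 3 oxidative phosphorylation genes called. The isoform differences could not change with it, because the mean of differences between same-numbered libraries equals the difference of the group means.

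Leaving out 1 library at a time gave 1 to 4 oxidative phosphorylation genes called higher and 0 lower, 1 to 2 in complex I, 0 to 1 in complex II, 0 to 1 in complex III, and 0 in complexes IV and V. It gave 1 to 3 mitochondrially encoded subunits called lower, 0 to 1 called lower among the subunits and relatives outside the symbol rule, and complex II medians between 0.020 and 0.082. The cause of these shifts was not tested.

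For genes that were never called, signs near 0 turned with the setting. With ERCC scaling the log2 fold change was 0.085 for Sdhc, 0.060 for Cox6c, 0.081 for Cycs, 0.057 for Cox6a2, 0.040 for Ndufa4, 0.077 for Ndufa1 and 0.041 for Ndufb11. With library totals it was -0.000927 for Cox7a2 and -0.010 for Cox8b, and with the filter at 1 CPM it was 0.000426 for Sdhc. Leaving out single libraries gave -0.26 to 0.055 for Sdhd, -0.052 to 0.033 for Sdhc, -0.065 to 0.028 for Cycs, -0.011 to 0.069 for Cox8b, -0.17 to 0.044 for Ndufa4, -0.086 to 0.059 for Ndufa1, -0.11 to 0.010 for Ndufb11, and a lowest value of -0.028 for Cox7b.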
